A study of Mus musculus with 9 samples.

Results

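Interferon-stimulated genes are the antiviral and immune genes that cells switch on when they sense an interferon. The 41 genes described here were taken by symbol from a list that was chosen with earlier results of these data known. Counts and medians over the list therefore describe it and are not independent evidence of a shift. All 41 were found among the 54532 genes of the deposited count table. The list holds 18 antiviral effectors, 6 genes of the ISG15 system and of the TRIM and PARP families, 4 transcription factors, 3 RNA sensors, 6 interferon-inducible GTPases, 2 immunoproteasome subunits and 2 chemokines. They were measured by bulk RNA sequencing of mouse prostate in 9 libraries, 3 from each of 3 genotypes at Srd5a2. That gene encodes steroid 5-alpha-reductase type II, the enzyme that makes dihydrotestosterone from testosterone. The groups were wild type (WT), heterozygous for the null allele (Het, Srd5a2+/-) and null (KO, Srd5a2-/-). Het males were crossed with WT C57BL6 females, and their offspring were bred further to give the KO males. No treatment is named for any group. The labels name neither the age of the mice nor the lobes, and do not say that each library came from its own animal. The p-values therefore measure the spread between these libraries, which may be technical.

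As background, type I interferons bind the receptor pair Ifnar1 and Ifnar2, and type II interferon binds Ifngr1 and Ifngr2. The Janus kinases on these receptors phosphorylate STAT proteins. A complex of STAT proteins with Irf9 then binds the interferon-stimulated response element (ISRE), while STAT dimers bind the gamma-activated site (GAS). Many of the induced genes encode proteins that sense viral RNA, block its translation or raise the response further, and others, such as Usp18, end it.

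Library totals ran from 16233392 to 24017791 counts, so that 1 read was worth between 0.0444 and 0.0569 CPM (counts scaled by depth and TMM factors). Srd5a2 itself stood at 2.30, 5.50 and 8.81 CPM in WT, 3.68, 5.19 and 2.37 in Het, and 0.934, 0.512 and 1.15 in KO, and every KO library lay below every other library. The prostate marker Pbsn (2508 to 13056 CPM) was read in every library. The secretory gene Sbp was nearly absent from WT 1, WT 3 and Het 2 (0.994, 16.02 and 7.26 CPM) and stood at 34372 CPM or more in the other 6. Of 16836 genes tested by edgeR's quasi-likelihood test, 0 were called at a Benjamini-Hochberg adjusted p under 0.05 in any of the 3 comparisons. DESeq2 called 14 genes (0.0832%) for KO against WT, 205 (1.22%) for Het against WT and 169 (1%) for KO against Het, and 0 of these were among the 41.

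Most of the 41 genes were read at low to moderate levels. All but Oas3 passed the low-count filter, 35 had a count in all 9 libraries and 6 had 0 counts in at least 1. On the deposited FPKM scale, which is per gene length and so allows genes to be compared, the mean over 9 libraries was highest for Bst2 at 38.2. Bst2 encodes tetherin, which holds budding virus at the cell surface. Next came Ifi35 at 13.1, Trim25 at 10.6, Irf9 at 10.03 and Stat2 at 9.41 FPKM. The lowest was Oas3, at 0.0323 FPKM. A mean of 5 FPKM or more was found for 9 genes and a mean under 1 FPKM for 12.

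In KO prostate the 41 genes lay mostly above WT, but no single gene passed the test. Of the 40 tested, 31 had a positive log2 fold change for KO against WT, against 50.6% of all genes. Their median was 0.31 on the log2 scale, against 0.01 over all genes. By edgeR 0 of 40 were called (0% of all genes), and at an unadjusted p under 0.05 there were 6 higher and 0 lower, against 2.2% and 1.37% of all genes. In 10 of the 40 the lowest KO library lay above the highest WT library, against 8.14% of all genes, and in 0 the reverse held, against 6.04%. Those 10 genes were Dhx58, Ifi44, Ifit3, Iigp1, Irf7, Parp14, Rtp4, Trim30a, Usp18 and Xaf1. KO had the highest genotype mean for 24 of the 40 genes, Het for 9 and WT for 7, and WT had the lowest mean for 24. Without WT 1, 27 genes were above 0, the KO libraries lay above WT in 11 of 41 (12.8% of all genes) and below in 2 (9.24%). Without WT 3 the KO libraries lay above WT in 17 of 41 genes, against 14% of all genes, and without WT 2 the median was 0.55.

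**Figure D1:**
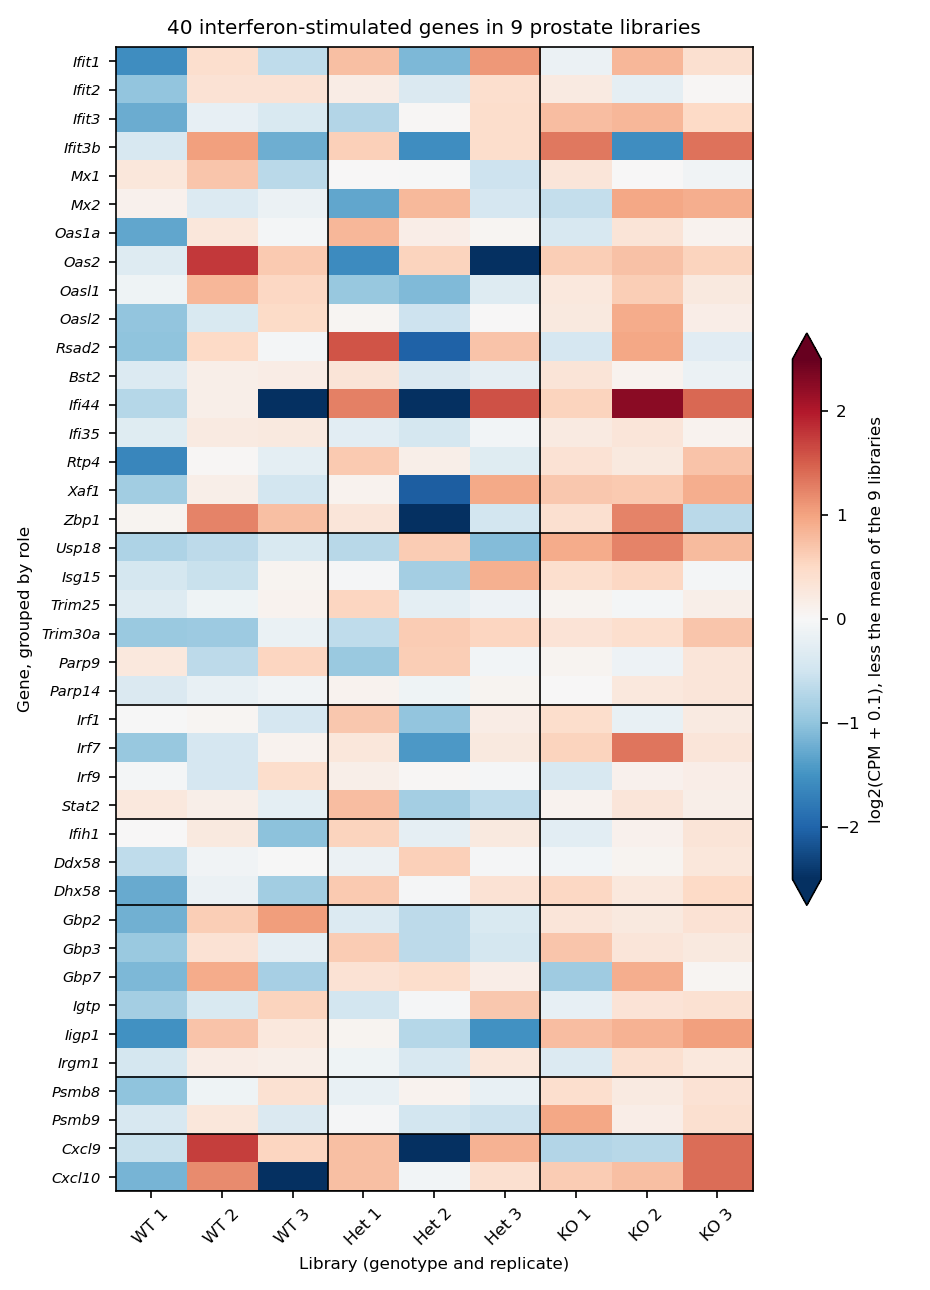
Level of the 40 tested genes (rows, grouped by role) in each of the 9 libraries (columns), as log2 of CPM plus 0.1, less the gene's mean over the 9 libraries. WT 1 and Het 2 hold the lowest value of 17 and 12 genes, and the 3 KO columns together hold the lowest value of 1.

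The libraries of a genotype did not stand together evenly. WT 1 held the lowest of the 9 values for 17 of the 40 genes and Het 2 for 12, while KO 1 and KO 3 held the lowest for 0 and KO 2 for 1. The highest values were spread more widely, over KO 2 (9 genes), Het 1 (8), KO 3 (6), WT 2 and Het 3 (5 each), KO 1 (3), WT 3 and Het 2 (2 each) and WT 1 (0). The mean log2 CPM of the 40 genes, less its mean over the 9 libraries, was -0.64, 0.22 and -0.19 in WT, 0.11, -0.56 and 0.01 in Het, and 0.23, 0.42 and 0.41 in KO. The KO libraries thus lay above all others, but KO 1 exceeded WT 2 by a margin far smaller than the spread between the WT libraries. Within a genotype, the median coefficient of variation of the 40 genes was 40.9% in WT, 36.3% in Het and 18.1% in KO. Over the 16670 tested genes with a mean above 0 in each genotype it was 23.2%, 35.2% and 19.3%, and KO had the lowest coefficient for 25 of the 40 genes and for 50.8% of all.

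Usp18 had all KO libraries above the other 6. It encodes the protease that removes ISG15 from its targets and also blocks signalling at the type I interferon receptor, so it is both an interferon-stimulated gene and a brake on the pathway. Its level was 2.14, 2.35 and 2.85 CPM in WT, 2.27, 5.84 and 1.71 in Het, and 7.25, 8.99 and 6.59 in KO. Every KO library lay above every WT and Het library, and Het 2 stood apart from the other Het libraries. The log2 fold change for KO against WT was 1.63 ± 0.50 (SE, 95% interval 0.52 to 2.74, edgeR adjusted p = 0.9996). For KO against Het it was 1.21 ± 0.49 (edgeR adjusted p = 0.753), and for Het against WT 0.42 ± 0.49 (edgeR adjusted p = 0.843). The Het against WT value rested on Het 2, and without that library it was -0.30. Of the exonic bases of Usp18, 4.44% also lie in exons of Gm44148, and strand was not stated for the counting.

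Isg15, the ubiquitin-like modifier that Usp18 removes, overlapped between the genotypes. It stood at 3.35, 3.06 and 4.77 CPM in WT, 4.49, 2.48 and 8.55 in Het, and 6.10, 6.60 and 4.39 in KO. The highest library was Het 3 and the lowest Het 2, so that Het spanned the whole range. Trim30a, a TRIM protein known to restrain Toll-like receptor signalling, stood at 2.20, 2.22 and 3.78 CPM in WT, 2.70, 6.66 and 6.18 in Het, and 5.44, 5.69 and 6.96 in KO. All KO libraries exceeded all WT libraries, with a log2 fold change of 1.14 ± 0.45 (SE, edgeR adjusted p = 0.9996). For Het against WT it was 0.92 ± 0.44 (edgeR adjusted p = 0.575), with Het 1 inside the WT range. Parp14, an ADP-ribosyltransferase of the interferon and interleukin responses, had a smaller and tighter difference. It stood at 21.5, 24.5 and 26.1 CPM in WT, 29.4, 25.6 and 29.2 in Het, and 27.8, 33.5 and 34.1 in KO, a log2 fold change for KO against WT of 0.41 ± 0.16 (SE, edgeR adjusted p = 0.9996). Trim25, the ubiquitin ligase that activates the RNA sensor RIG-I, ran from 49.0 to 88.4 CPM with both extremes outside KO. Parp9 ran from 17.5 to 50.6 CPM, both in Het. Its exons share 9.4% of their bases with Dtx3l on the other strand.

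Ifit3 also had all KO libraries above the other 6. Ifit proteins bind foreign RNA and hinder its translation. Ifit3 stood at 1.73, 3.64 and 3.21 CPM in WT, 2.49, 4.32 and 5.79 in Het, and 7.30, 7.57 and 5.96 in KO. The highest Het library, Het 3, came close to the lowest KO library. The log2 fold change was 1.28 ± 0.44 for KO against WT (SE, 95% interval 0.29 to 2.27, edgeR adjusted p = 0.9996), 0.72 ± 0.44 for KO against Het (edgeR adjusted p = 0.922) and 0.55 ± 0.44 for Het against WT (edgeR adjusted p = 0.746). Ifit3 shares 31.7% of its 100-base stretches with Ifit3b, and Ifit3b shares 27.4% with Ifit3, so reads may have been split between them. Ifit3b stood at 0.628, 1.86 and 0.311 CPM in WT, 1.35, 0.230 and 1.21 in Het, and 2.31, 0.228 and 2.35 in KO, with KO 2 the lowest of the 9 libraries. The 4 Ifit genes of the list lie within 99.3 kb of chromosome 19 (34550694 to 34650009, GRCm38). The other Ifit genes of this cluster overlapped between genotypes: Ifit1 ran from 2.41 CPM in WT 1 to 15.5 in Het 3, and Ifit2 from 2.46 in WT 1 to 6.62 in Het 3.

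**Figure D2:**
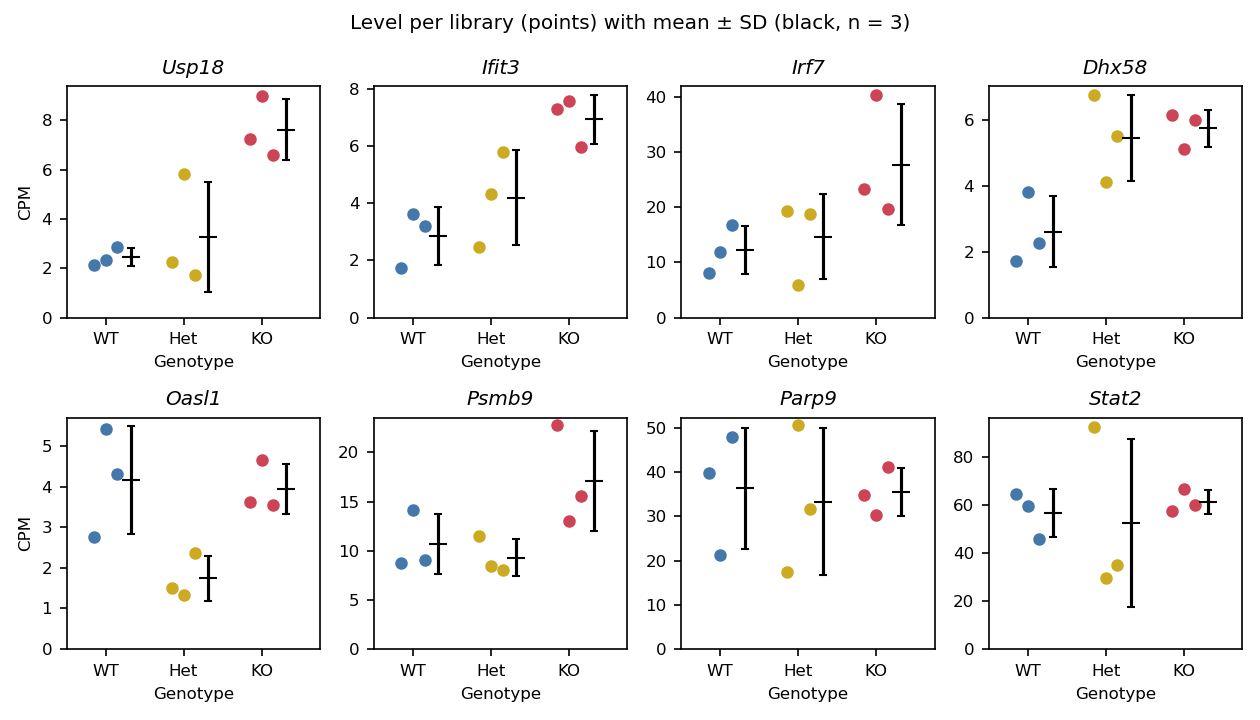
CPM of selected genes in each library (points) by genotype, with the mean and SD of the 3 libraries in black. In the Usp18 and Ifit3 panels the 3 KO points lie above all WT and Het points.

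Several promoters of the list, among them those of Ifit1, Ifit3 and Ifit3b, hold the core of the response element. In the RefSeq promoter table for GRCm38.p6, which covers 250 bases before to 50 bases after each start, 31 of the 41 genes had an entry. The ISRE core GAAANNGAAA, searched on both strands, was present in 18 of the 31 (58.1%), against 3.99% of all 27025 genes and 3.44% of all 32851 promoters. The GAS core TTCNNNGAA, which reads the same on both strands and can overlap the ISRE core, was present in 8 of 31 (25.8%), against 9.55% of all genes and 8.3% of promoters. The windows of 60 bases below were chosen to show a core repeated in tandem (Isg15, Ifit1, Oas1a), the identical windows of Ifit3 and Ifit3b, and a core in 2 genes whose KO libraries all lay above Het or above WT (Gbp2 and Trim30a). Capitals mark the core, and TTTC at both ends is the core on the other strand.
Isg15 (chr4:156200850-156200909, minus strand): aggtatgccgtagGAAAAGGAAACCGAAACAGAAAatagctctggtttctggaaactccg
Ifit1 (chr19:34640779-34640838, plus strand): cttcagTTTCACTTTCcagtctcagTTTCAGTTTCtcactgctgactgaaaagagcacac
Oas1a (chr5:120907526-120907585, minus strand): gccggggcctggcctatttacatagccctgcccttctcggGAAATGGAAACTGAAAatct
Ifit3 (chr19:34583382-34583441, plus strand): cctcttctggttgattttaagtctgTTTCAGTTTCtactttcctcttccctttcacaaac
Ifit3b (chr19:34607778-34607837, plus strand): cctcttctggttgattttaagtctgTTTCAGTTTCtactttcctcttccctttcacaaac
Trim30a (chr7:104465195-104465254, minus strand): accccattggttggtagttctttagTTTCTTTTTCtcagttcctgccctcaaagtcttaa
Gbp2 (chr3:142620579-142620638, plus strand): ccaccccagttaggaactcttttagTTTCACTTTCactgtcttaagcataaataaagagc
Isg15 holds 3 overlapping cores and Ifit1 and Oas1a hold 2 each. The promoters of Ifit3 and Ifit3b also hold 2 each, of which the windows above show 1. Among genes with a promoter entry, the core was present in 3 of the 6 with KO libraries all above WT, which include the untested Oas3. It was present in 15 of the 25 whose groups overlapped. For KO against Het the counts were 2 of 8 and 16 of 23. Dhx58, Iigp1, Parp14, Rtp4 and Usp18, whose KO libraries all lay above WT, had no entry in the table and are outside these counts. Of these, Iigp1 and Usp18 also had KO libraries all above Het.

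The other antiviral effectors fell into several patterns. Ifi44 stood at 0.732, 1.42 and 0.104 CPM in WT, 3.19, 0 and 4.03 in Het, and 1.92, 6.43 and 3.61 in KO. Xaf1, a pro-apoptotic partner of the XIAP inhibitor, stood at 2.14, 4.39 and 2.85 CPM in WT, 4.22, 0.873 and 7.78 in Het, and 6.37, 6.31 and 7.53 in KO. Rtp4, a chaperone that also restricts some RNA viruses, stood at 2.77, 8.97 and 7.41 CPM in WT, 13.8, 9.70 and 7.12 in Het, and 11.3, 10.4 and 14.5 in KO. In each of these the KO libraries exceeded all WT libraries and overlapped the Het libraries, and Rtp4 shares 9.28% of its 100-base stretches with another gene.

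Some members of the oligoadenylate synthetase family make a messenger that activates RNase L, and the genes of this family in the list differed from one another. Oasl1, which in mice represses translation of Irf7, was lowest in Het: 2.77, 5.41 and 4.30 CPM in WT, 1.51, 1.33 and 2.37 in Het, and 3.62, 4.66 and 3.56 in KO. All Het libraries lay below all WT and KO libraries, and the WT and KO ranges overlapped. In log2 terms the difference was -1.26 ± 0.46 for Het against WT (SE, edgeR adjusted p = 0.477) and 1.18 ± 0.46 for KO against Het (edgeR adjusted p = 0.733). Oasl2 stood at 7.32, 11.1 and 20.3 CPM in WT, 15.03, 10.1 and 14.6 in Het, and 17.2, 27.9 and 16.2 in KO, so that KO lay above Het but not above WT 3. Oas1a ran from 1.78 CPM in WT 1 to 8.05 in Het 1 and shares 40.9% of its 100-base stretches, most of them with Oas1g. Oas2 ran from 0 in Het 3 to 2.57 CPM in WT 2. Oas3, which was not tested, stood at 0.0523, 0 and 0 CPM in WT, 0, 0 and 0.717 in Het, and 0.824, 0.398 and 0.105 in KO.

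Of the remaining effectors, Ifi35 separated KO from Het only. It stood at 18.4, 26.3 and 26.7 CPM in WT, 18.9, 16.5 and 21.6 in Het, and 26.4, 27.8 and 24.1 in KO. The difference on the log2 scale was 0.46 ± 0.20 for KO against Het (SE, edgeR adjusted p = 0.798) and -0.32 ± 0.20 for Het against WT (edgeR adjusted p = 0.663), and 16.8% of its exonic bases overlap Gm11626. Bst2 ran from 27.0 to 43.2 CPM, with both extremes in Het. Rsad2, which encodes viperin, a maker of a chain-terminating nucleotide, ran from 1.01 CPM in Het 2 to 13.2 in Het 1. The Mx GTPases, which block viral nucleoproteins, also overlapped: Mx1 ran from 3.78 CPM in WT 3 to 9.94 in WT 2, and Mx2 from 0.432 in Het 1 to 2.45 in KO 2. Zbp1, a sensor of Z-form nucleic acid, ran from 0 in Het 2 to 1.65 CPM in KO 2.

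Among the transcription factors, Irf7 was highest in KO. Irf7 drives the second, amplifying wave of type I interferon and is itself interferon-induced. It stood at 8.16, 11.9 and 16.8 CPM in WT, 19.4, 5.84 and 18.8 in Het, and 23.3, 40.3 and 19.7 in KO. Every KO library lay above every WT library and, by a small margin over Het 1, above every Het library. The KO and Het libraries overlapped with DESeq2 size factors, with no low-count filter, without WT 3 and without Het 2. The members of the factor complex were not set apart: Stat2 ran from 29.7 CPM in Het 2 to 92.5 in Het 1, and Irf9 from 40.3 in WT 2 to 72.8 in WT 3. Irf1, an early interferon-induced factor, ran from 11.7 CPM in Het 2 to 37.7 in Het 1. For these 3 the KO libraries lay within the range of the others.

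The 3 RNA sensors are the RIG-I-like receptors. Dhx58, which encodes LGP2, a regulator of the other sensors, was low in WT: 1.73, 3.82 and 2.28 CPM in WT, 6.76, 4.14 and 5.52 in Het, and 6.15, 5.12 and 6.01 in KO. Both the Het and the KO libraries lay above all WT libraries. Its log2 fold change was 1.14 ± 0.41 for KO against WT (SE, edgeR adjusted p = 0.9996) and 1.06 ± 0.41 for Het against WT (edgeR adjusted p = 0.489). These comparisons share the WT libraries. Ddx58, which encodes RIG-I, ran from 13.8 CPM in WT 1 to 32.7 in Het 2, and Ifih1, which encodes MDA5, from 9.28 in WT 3 to 28.1 in Het 1.

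The interferon-inducible GTPases attack the membranes around intracellular microbes. Iigp1 stood at 0.837, 4.26 and 3.11 CPM in WT, 2.70, 1.52 and 0.828 in Het, and 4.45, 4.78 and 5.34 in KO. The KO libraries lay above all 6 others, though by little over WT 2. The log2 fold change for KO against Het was 1.53 ± 0.65 (SE, edgeR adjusted p = 0.784). Gbp2 stood at 2.93, 10.5 and 14.3 CPM in WT, 5.41, 4.32 and 5.24 in Het, and 8.51, 8.08 and 8.84 in KO. KO exceeded Het in every library, WT spanned both, and the log2 fold change for Het against WT was -0.89 ± 0.48 (SE, edgeR adjusted p = 0.610). Gbp3 (1.20 to 3.90 CPM), Gbp7 (1.26 to 5.50), Igtp (5.33 to 15.5) and Irgm1 (12.7 to 22.8) overlapped between genotypes, and each was lowest in WT 1.

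The immunoproteasome subunits, which shape peptides for presentation on class I molecules, separated KO from Het. Psmb9 stood at 8.79, 14.2 and 9.02 CPM in WT, 11.5, 8.41 and 8.06 in Het, and 22.8, 13.0 and 15.5 in KO, a log2 fold change for KO against Het of 0.88 ± 0.31 (SE, edgeR adjusted p = 0.696). Psmb8 stood at 6.90, 13.0 and 18.2 CPM in WT, 12.3, 14.8 and 12.3 in Het, and 18.6, 16.4 and 18.05 in KO. For both genes 1 WT library reached into the KO range. The chemokines that draw T cells were read at low levels: Cxcl9 ran from 0 to 3.20 CPM and Cxcl10 from 0 to 3.87 CPM, with no separation.

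For KO against Het, 31 of 40 genes had a positive log2 fold change, against 52% of all genes, with a median of 0.23 against 0.02. By edgeR 0 were called (0% of all genes). At an unadjusted p under 0.05, 5 were higher and 0 lower, against 4.42% and 1.81% of all genes. The KO libraries lay above all Het libraries in 10 (7.8% of all genes) and below in 0 (4.12%): Gbp2, Ifi35, Ifit3, Iigp1, Irf7, Oasl1, Oasl2, Psmb8, Psmb9 and Usp18. Ifit3, Iigp1, Irf7 and Usp18 were in both sets of 10, though Irf7 not in every setting, and these comparisons share the KO libraries. Without Het 1 the KO libraries lay above Het in 16 of 41, against 19.5% of all genes, and the median was 0.40. For Het against WT, 26 of 40 had a positive log2 fold change, against 50% of all genes, with a median of 0.17. By edgeR 0 were called (0%), and at an unadjusted p under 0.05 there was 1 higher and 1 lower, against 3.43% and 5.61% of all genes. For Het against WT 1 gene had Het libraries all above WT (Dhx58, against 4.7% of all genes) and 1 all below (Oasl1, against 8.59%), which is no more than the background.

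**Figure D3:**
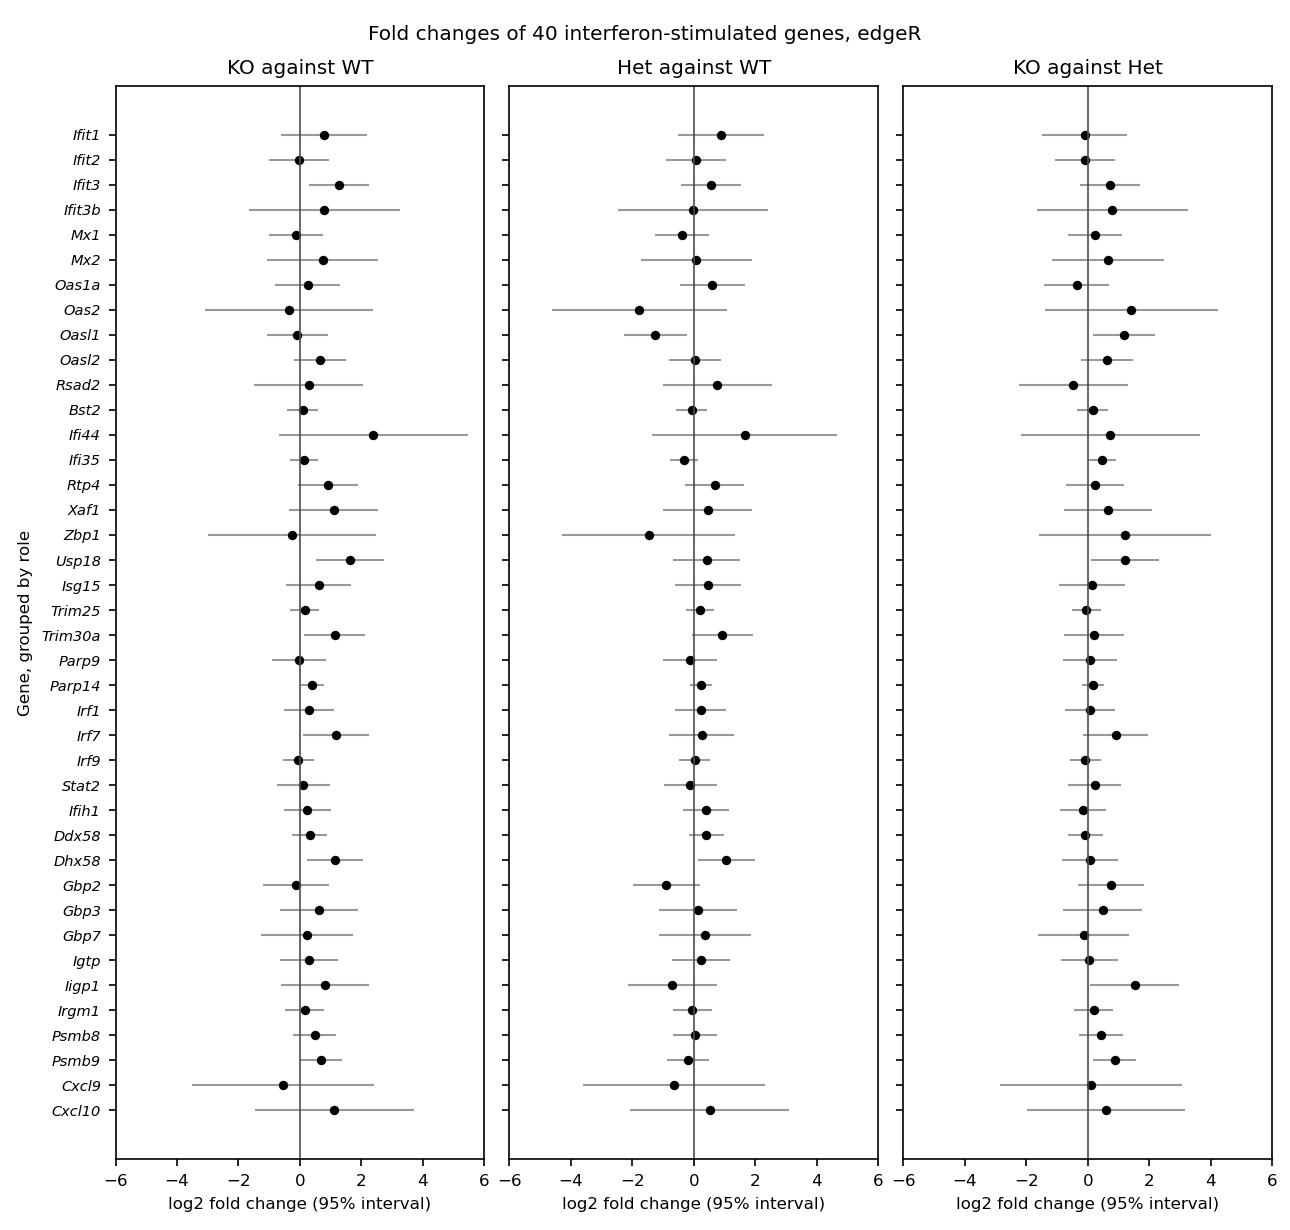
log2 fold change (points) and 95% interval (lines) of the 40 tested genes in the 3 comparisons, from 1 edgeR model. For KO against WT 31 points lie above 0, with intervals that for most genes include 0.

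Interferon transcripts themselves were scarcely read. Of 21 interferon genes, 18 had 0 counts in all 9 libraries, which allows up to 0.0172 CPM over the libraries together (counting error only). Ifng, the type II interferon, had 1 read, in KO 3, and Ifnk and Ifnz had 8 and 22 reads, none of them in KO. The receptors were read in every library. Ifnar1 ran from 22.2 to 32.1 CPM, Ifnar2 from 9.45 to 28.8, Ifngr2 from 31.2 to 66.7, Ifnlr1 from 4.75 to 18.3 and Il10rb from 6.12 to 19.2. Ifngr1, the ligand-binding chain for type II interferon, stood at 93.4, 64.6 and 66.8 CPM in WT, 36.1, 35.8 and 42.1 in Het, and 69.7, 58.3 and 42.5 in KO. All Het libraries lay below all WT libraries, with a log2 fold change of -0.98 ± 0.21 (SE, edgeR adjusted p = 0.392). DESeq2 called this difference (adjusted p = 0.0199), the 1 pathway gene outside the 41 that it called in any comparison. On the FPKM scale Ifngr1 (19.5) stood above Ifngr2 (12.9), Ifnar2 (4.95) and Ifnar1 (4.55).

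The Janus kinases Jak1 (70.9 to 130 CPM), Jak2 (25.5 to 54.1) and Tyk2 (26.3 to 39.0) overlapped between the genotypes. Of 7 inhibitors of the pathway, 4 had a positive log2 fold change for KO against WT, and of 13 genes that induce interferon 2 did, with a median of -0.10.

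A further 44 interferon-stimulated genes outside the 41 were tested. For KO against WT 35 were above 0, with a median of 0.38, and for KO against Het 41 were, with a median of 0.41. For Het against WT 21 were above 0, with a median of -0.01. By edgeR 0 were called in any comparison. KO libraries lay above all WT libraries in 7 (15.9%, against 8.14% of all genes). Among all tested pathway genes outside the 41, receptors and inducers included, the smallest p values for KO against WT belonged to Lgals3bp, a secreted glycoprotein, with a log2 fold change of 1.18 ± 0.36, Helz2, a helicase, with 0.81 ± 0.27, and Slfn8 with 2.38 ± 0.83 (SE, edgeR adjusted p = 0.9996 for each). Lgals3bp stood at 22.3, 37.5 and 31.2 CPM in WT, 79.2, 33.2 and 51.2 in Het, and 43.8, 71.8 and 90.9 in KO. For KO against Het the smallest were Gbp9 at 2.13 ± 0.65 (edgeR adjusted p = 0.645), Sp110, a nuclear body protein, at 1.68 ± 0.56 (0.685) and the receptor Ifngr1 at 0.58 ± 0.21 (0.713). For Het against WT, beside Ifngr1, they were Sp110 at -1.77 ± 0.56 and Ikbke, a kinase that activates Irf3 and Irf7, at -0.66 ± 0.21 (edgeR adjusted p = 0.431 for both).

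Markers of other cells also differed between the libraries. Their part in the result was not tested beyond adding the skeletal muscle or the macrophage score to the model. In bulk tissue, more cells of a type and more RNA per cell cannot be told apart. Of 10 skeletal muscle markers, 9 were tested and all 9 had a positive log2 fold change for KO against WT. Their summed level was 342 to 1307 CPM in WT, 144 to 662 in Het and 748 to 5141 in KO, with Myh4 at 0 in WT 1, WT 2 and all Het libraries and Tnnc2 at 0 in all 9. When the model also held the score of these markers, which itself differed between genotypes, 24 of the 40 genes were above 0 for KO against WT (median 0.20) and 20 for KO against Het (median 0.04). Macrophage and dendritic cell markers (14) summed to 228 to 365 CPM in WT, 165 to 224 in Het and 241 to 363 in KO. Of the 13 tested, 5 had a positive log2 fold change for KO against WT and 13 for KO against Het. With the score of these markers as a covariate, 31 of 40 interferon-stimulated genes were above 0 for KO against WT. The count with this score for KO against Het is not given here. T and NK cell markers (16) summed to 2.56 to 10.1 CPM in WT, 4.27 to 6.32 in Het and 10.7 to 17.2 in KO. Of the 9 tested, 8 had a positive log2 fold change for KO against WT and 1 a negative one (-2.89). Plasmacytoid dendritic cells are the main makers of type I interferon. Their 3 markers summed to 2.75 to 4.08 CPM in WT, 0.486 to 4.14 in Het and 1.54 to 5.06 in KO, and Siglech was at 0 in all Het libraries. The 2 tested markers had log2 fold changes of -7.05 and -0.21 for Het against WT. For KO against WT, 1 was positive and 1 negative. B and plasma cell markers (8) summed to 17.6 to 50.7 CPM in WT, 4.25 to 17.5 in Het and 24.3 to 125 in KO. Epithelial and stromal markers differed as well. The 6 seminal vesicle markers summed to 30973 to 219180 CPM in WT, 6593 (Het 1) to 359147 (Het 2) in Het and 93665 to 188729 in KO. The 9 secretory luminal markers summed to 14559 to 82935 CPM in WT, 4747 to 177413 in Het and 52360 to 72774 in KO. The 6 proximal luminal markers all had a positive log2 fold change for KO against WT (50.6% of all genes). In 5 of them the KO libraries lay all above WT (8.14% of all genes), and DESeq2 called 2 (0.0832%). The 6 markers summed to 102 to 193 CPM in WT, 82.2 to 320 in Het and 261 to 533 in KO. Their score was higher in the 3 KO libraries than in the other 6. For KO against Het all 8 endothelial markers were positive (52% of all genes), with 6 not overlapping (7.8%) and 3 called by DESeq2 (1%). These markers summed to 64.7 to 102 CPM in WT, 23.6 to 40.5 in Het and 61.1 to 135 in KO. All 6 fibroblast markers were positive for KO against Het, with 5 not overlapping (7.8% of all genes) and 0 called by DESeq2 (1%). These markers summed to 450 to 933 CPM in WT, 356 to 619 in Het and 856 to 1026 in KO. Of 6 neutrophil markers, Ly6g and Cxcr2 were at 0 in all 9 libraries, and the sum never passed 1.93 CPM.

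**Figure D4:**
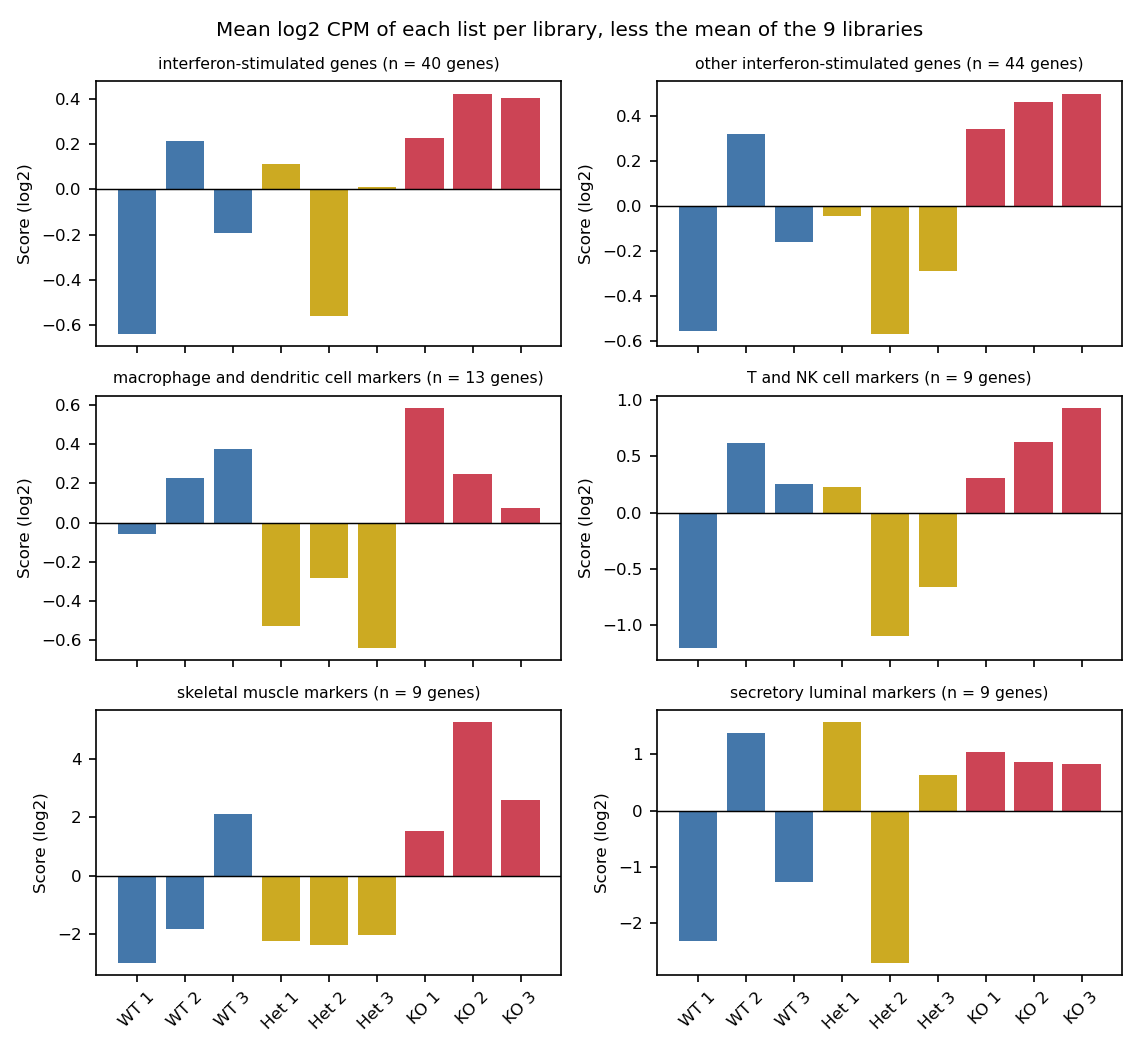
Mean log2 CPM of the listed genes in each library (bars), less the mean of the 9 libraries, for the interferon-stimulated genes and for marker lists of other cells, with a separate vertical axis per panel. The KO libraries have the 3 highest values for the 40 interferon-stimulated genes, and 2 of the 3 highest for skeletal muscle.

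WT 1, WT 3 and Het 2, the libraries nearly lacking Sbp, also had the 3 lowest scores of the interferon-stimulated genes (-0.64, -0.19 and -0.56). Their secretory luminal scores were the 3 lowest as well (-2.31, -1.27 and -2.70), and all KO libraries were rich in Sbp. Whether these are linked was not tested. Without WT 1, WT 3 and Het 2, 24 of 41 genes were above 0 for KO against WT, with a median of 0.17. With 1 WT library left, KO libraries lay above WT in 19 of 41 (27.4% of all genes) and below in 7 (25.6%).

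Across the 9 libraries the 40 genes tended to vary together. Over their 780 pairs the median Pearson r of log2 CPM was 0.30 (n = 9 libraries), with 595 pairs above 0 and 185 below. These values share library, depth and tissue make-up. Against the mean of the other genes, 37 of 40 had r above 0, highest for Xaf1 (0.84), Gbp3 (0.83) and Irf7 (0.82). Parp9 (-0.50), Irf9 (-0.16) and Mx2 (-0.08) had r below 0. Outside the list, the 10 genes most correlated with the mean of the 40 were Tlr2 (0.97), Cyp2f2 and Myh2 (0.96 each), Anxa1, Plec and 2510009E07Rik (0.95 each), Sox2, Fmnl2 and Cxcl17 (0.94 each) and Gm7714 (0.93). Myh2 is among the skeletal muscle markers above.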

How the data were processed

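Genes were counted by the authors, who deposited raw read counts per gene (whole numbers, not normalised) and FPKM values per library, which are scaled by gene length and depth. Per the labels' protocols the libraries were polyA-enriched with inserts of 250 to 300 bp, and per the submitters' processing notes the build was GRCm38 (mm10). No aligner, counter or strand setting is given in the sources used here. The main test was edgeR 4.0.16, run in R 4.3.3 (TMM, filterByExpr, robust quasi-likelihood, 3 genotypes in 1 model), with p-values adjusted by Benjamini-Hochberg over 16836 genes and called under 0.05. CPM used TMM-scaled totals, and FPKM served only to compare genes. limma 3.58.1 (voom) and DESeq2 1.42.0 were alternatives. Fits were tested on simulated data with 100 genes changed 2-fold and another 100 changed 8-fold in each comparison. At a 2-fold change, 2 (Het against WT) to 5 (KO against Het) of the 100 were recovered. At an 8-fold change 54 to 63 were recovered, and each comparison had 3 to 5 false calls. A result of 0 called therefore cannot show that a 2-fold change was absent. Shared sequence was searched as stretches of 100 bases in GENCODE vM21 transcripts, and promoters came from RefSeq.

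The list of 41 genes, the pathway lists and the marker lists were chosen with earlier results of these data known. Statistics were given for Usp18, Ifit3 and the 5 genes of the list with the smallest p per comparison, and for pathway genes outside it for the 3 with the smallest p and, by level, Ifng, receptors and Janus kinases. The 10 genes most correlated with the list's mean were named. Other genes of the list were given by level. A few values that this rule would give are left out here. The overlap of groups was counted after seeing the data.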

Additional observations from a re-analysis of the deposited data

How the results depend on the processing

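The number of interferon-stimulated genes called stayed at 0 in every setting run: other scalings, other filters, DESeq2, voom, 2 genotypes alone, each library left out, the 3 libraries nearly lacking Sbp left out, and marker scores as covariates (the last 2 and the overlap counts chosen after seeing the data). Among all genes, DESeq2 called 14 for KO against WT, 205 for Het against WT and 169 for KO against Het in place of 0. Fitting 2 genotypes alone called 1 for KO against WT, omitting the low-count filter called 2 for KO against Het, and leaving out the libraries low in Sbp called 1 each for Het against WT and KO against Het. Leaving out each library in turn gave 0 to 1, 0 to 258 and 0 to 18, the highest each without Het 1. The cause was not tested.

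Genes of the list with KO above WT in every library numbered 10 to 17 on leaving out each library, while the share of all genes ran from 7.61% to 17.5%. Those with Het above WT numbered 1 to 7 (4.01% to 15% of all genes) and those with KO above Het 10 to 16 (7.61% to 19.5%). Without the libraries low in Sbp, KO lay above WT in 19 of 41 (27.4% of all genes) and below in 7 (25.6%), and Het lay above WT in 12 (23.2%) and below in 15 (33.6%). With a filter of 1 CPM Het lay above WT in 2 (6.76%). The number above 0 for KO against Het was 20 with the skeletal muscle score. The median log2 fold change ranged over 0.30 to 0.55, 0.02 to 0.29 and 0.18 to 0.40 on leaving out each library. For KO against WT it was 0.20 given the skeletal muscle score and 0.17 without the Sbp-low libraries, and 0.04 with that score for KO against Het. Reversals were Usp18 for Het against WT (-0.30 to 0.73 on leaving out each library, -0.25 without the libraries low in Sbp) and Gbp2 for Het against WT (0.14 with the macrophage score). No paired analysis was possible because the replicate numbers follow accession order and pair nothing. Depth limits the genes under about 1 CPM, such as Oas3, Ifit3b and Zbp1.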
